A study of Caenorhabditis elegans with 12 samples.

Results

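Of 82895 adenosines of Caenorhabditis elegans listed as read as guanosine in RNA, 3228 lay on the X chromosome. All listed positions on X were taken, and neighbouring positions were joined when no more than 1000 bp separated them, whichever their strand, which gave 195 regions of the 2710 in the table. X therefore held 3.89% of the sites and 7.20% of the regions. The list was deposited for a series of 12 rRNA-depleted total RNA libraries of Bristol N2, the standard wild-type strain. There was 1 mock-treated library (left at room temperature) and 1 library digested with the exonuclease RNase R for each of stages 1 to 6. By the labels, stage 1 is the embryo, stages 2 to 5 are the larval stages L1-L4, and stage 6 is the Young Adult. No column of the list names a library, so no site on X could be assigned to a stage or treatment, and no mean or SD over samples can be given. Depth over each site, the share of edited reads and the total count per library are not known from the list.

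ADAR enzymes act on double-stranded RNA, where they deaminate adenosine to inosine, and sequencing reads inosine as guanosine. In C. elegans the active enzyme is ADR-2, and ADR-1 is a related double-stranded RNA binding protein without deaminase activity. Paired RNA often comes from inverted copies of a sequence, and such copies are common on the repeat-rich arms of the worm's autosomes. The X chromosome has a more even spread of genes, is turned down in hermaphrodites by the dosage compensation complex and is largely silent in the germline.

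The table gives for each site the 3 genome bases centred on it, so stretches of sequence can be read where sites lie close together. In the sequences that follow, capitals mark listed sites of the strand shown, lower case letters mark bases known from a neighbouring triplet, and n marks a base that no triplet gives. All are read 5′ to 3′ on X, in the coordinates of the deposited list, for which the sources used here name no genome build. The first pair is shown because these are inverted copies within the region of X with the most sites. The copy at chrX:1011579-1011669 is on the plus strand, and the copy at chrX:1012150-1012240 is read on the minus strand, so that equal letters stand below each other.
First copy, plus strand: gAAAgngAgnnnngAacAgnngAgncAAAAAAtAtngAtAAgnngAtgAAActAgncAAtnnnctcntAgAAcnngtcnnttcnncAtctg
Second copy, minus strand: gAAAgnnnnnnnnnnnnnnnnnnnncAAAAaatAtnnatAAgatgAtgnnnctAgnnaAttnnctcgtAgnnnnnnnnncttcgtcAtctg

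The copies of the first pair were 91 bases long and 480 bases apart, and 46 positions had a known base in both. The copies were found as the longest stretch of known bases that pair without a mismatch, so their equality at these positions comes from the search. Sites were listed in both copies and on both strands.

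The second pair lies near the right end of X, in the region at chrX:17629834-17630387. Its copies, at chrX:17629833-17629957 and chrX:17630134-17630258, were 125 bases long and 176 apart, and 37 positions were known in both. They were found by the same search. Here the first copy is read on the minus strand and the second on the plus strand.
First copy, minus strand: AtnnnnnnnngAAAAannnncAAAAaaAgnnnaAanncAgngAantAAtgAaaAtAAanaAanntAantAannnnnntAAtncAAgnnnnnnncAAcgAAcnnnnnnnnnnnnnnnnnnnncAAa
Second copy, plus strand: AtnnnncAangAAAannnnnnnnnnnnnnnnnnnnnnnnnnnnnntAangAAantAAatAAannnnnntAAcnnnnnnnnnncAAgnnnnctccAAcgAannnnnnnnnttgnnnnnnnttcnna

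Both copies carried sites on the strand shown, 32 in the first and 19 in the second, which also had 3 on its minus strand. Bases are known only at and beside listed adenosines, so a strand that carries sites reads as rich in adenosine. The next sequence is shown for its density, with 23 sites in 64 bp. It is the plus strand at chrX:7021590-7021655.
Dense region: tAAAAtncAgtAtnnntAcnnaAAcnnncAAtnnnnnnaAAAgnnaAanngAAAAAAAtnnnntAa

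The following pair, on the plus strand at chrX:15808062-15808173 and chrX:15810973-15811081, is shown because each holds a short unit repeated in tandem.
First tandem region: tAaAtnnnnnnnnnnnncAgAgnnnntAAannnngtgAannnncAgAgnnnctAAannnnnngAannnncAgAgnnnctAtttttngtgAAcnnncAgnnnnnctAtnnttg
Second tandem region: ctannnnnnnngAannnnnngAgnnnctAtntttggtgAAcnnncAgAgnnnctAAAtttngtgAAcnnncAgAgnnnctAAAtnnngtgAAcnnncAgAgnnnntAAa

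The last sequence is an example of the regions in which no site exceeded a score of 1, which were 137 of the 195 on X. It is the first region of the chromosome, on the plus strand at chrX:7681-7769, with 11 sites that all had a score of 1.
First region of X: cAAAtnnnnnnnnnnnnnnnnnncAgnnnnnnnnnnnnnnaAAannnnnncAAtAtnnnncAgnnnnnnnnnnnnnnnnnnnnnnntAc

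The first question was how densely X was listed compared with chromosomes II to V. X had 11.0 regions per Mb of listed length, against 22.2 on V, 27.6 on II, 28.4 on IV and 36.3 on III. X was lower than each of these chromosomes, and their mean was 2.60 times its density. Over all sites the density of X was 0.384 of the autosome mean. With sites of a score of at least 5 alone on every chromosome, which left 10 regions on X, it was 0.103 of their mean. Counted as sites, X had 182 per Mb, against 577 on V and 1219 on III, the lowest and highest of the 4 autosomes, and their mean was 4.86 times the value of X. The gap was wider in sites than in regions. With 1 X chromosome against 4 autosomes, a two-sided exact permutation test cannot give a p below 0.2, and both densities gave p = 0.2. Of 34 comparisons of this kind, 23 gave this smallest value and X lay outside the range of the 4 autosomes in 27. Their adjusted values (Benjamini-Hochberg, exact permutation test) ran from 0.296 to 1, so no difference between X and the autosomes passed a test at this level, and those that follow are given as values. The libraries were made from whole worms in bulk, so fewer cells transcribing a locus and less RNA per cell cannot be told apart.

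Along X, regions were denser towards the ends than in the middle. With the listed length cut into 3 equal parts, the left arm held 69 regions (11.7 per Mb), the centre 45 (7.62 per Mb) and the right arm 81 (13.7 per Mb). The arms together had 150 of 195 regions, or 76.9% (exact 95% binomial interval 70.4 to 82.6%), against 81.7% on V, 81.9% on IV, 82.7% on II and 85.6% on III. Among sites with a score of at least 5, which left 10 regions on X, the share was 90.0% on X and 86.7 to 93.9% on the autosomes, so that X was no longer the lowest. With a score of at least 2 it was 79.3% on X and 87.1 to 91.2% on the autosomes. The density on the arms was 1.67 times that of the centre on X, and 2.23 (V) to 2.97 (III) times on the autosomes. X was lower than the 4 autosomes in both places, with 12.7 regions per Mb on its arms against 27.2 to 46.6, and 7.62 in its centre against 12.2 to 15.7. The difference in density was larger on the arms, where the mean of the autosomes was 2.81 times X, than in the centre, where it was 1.89 times.

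In intervals of 1 Mb, X had a median of 10.5 regions (range 5 to 24). The interval with the most was the first, which held 24 regions and 488 sites, followed by the interval from 15 to 16 Mb with 19 regions and that from 16 to 17 Mb with 17. The intervals from 6 to 7, 10 to 11 and 11 to 12 Mb held 5 regions each. Neighbouring regions were a median of 56.2 kb apart. The widest stretch with no listed site ran from 10622085 to 11441442, or 819 kb, in the centre. A stretch without sites does not show that its RNA is unedited, since depth there was not known.

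**Figure D1:**
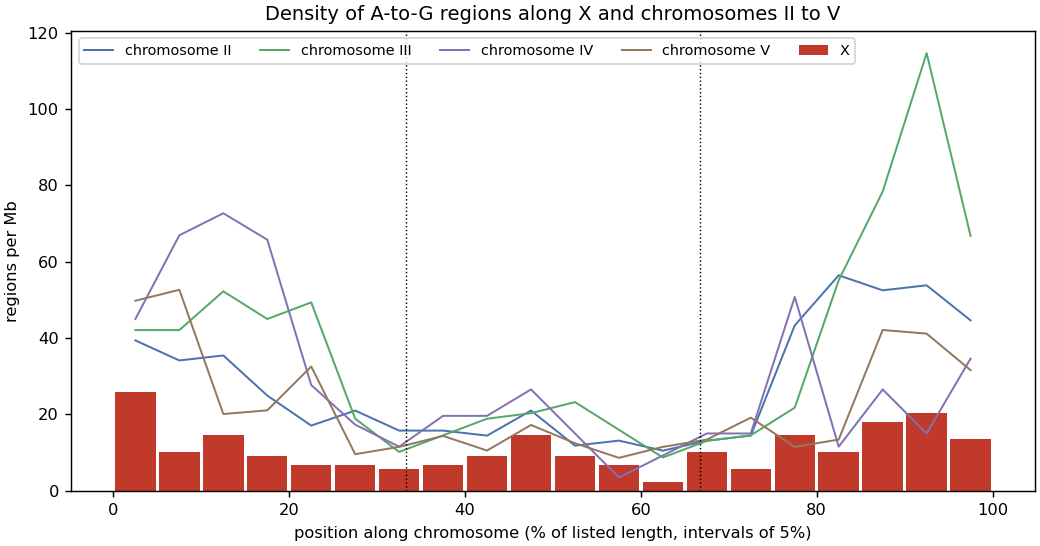
Regions per Mb in intervals of 5% of the listed length, with X as bars and chromosomes II to V as lines; dotted lines separate the arms from the centre. X has its highest value, 26.0 per Mb, in the first interval, and reaches 20.3 per Mb towards the right end.

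The regions of X were small. They had a median of 10 sites (quartiles 6.5 and 18, range 4 to 131) over a median span of 77 bp (range 11 to 2029). The autosomes had medians of 12 sites on V, 13 on II and 16 on III and IV, over 86 to 123 bp. X had 11 regions with at least 50 sites, or 5.64% (exact interval 2.85 to 9.87%), against 14.4 to 19.2% on the autosomes, and 92 with fewer than 10 sites, or 47.2%, against 30.6 to 40.7%. Over all sites of a chromosome, those on X were also slightly less crowded. The nearest site on the same strand was a median of 2 bp away on X and 1 bp on each of the 4 autosomes, and 47.3% of X sites had a directly adjacent site, against 51.7 to 54.4%. This spacing was not compared at like region size.

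A run is a set of sites on 1 strand with gaps of at most 100 bp. X had 267 runs, with a median of 9 sites over 72 bp and never fewer than 4 sites. The smallest regions on each of the 4 autosomes also had 4 sites, so such a lower limit is not particular to X. In 147 regions (75.4%, exact interval 68.7 to 81.3%) there was a single run, against 57.2% of the regions on III to 65.3% on V. Of the 178 regions with sites on 1 strand, 31 (17.4%, exact interval 12.2 to 23.8%) had at least 2 runs, against 25.9% on V to 33.0% on IV. The gaps between the runs of these 31 regions ranged from 125 to 971 bp, with a median of 245.5 bp. Such spaced blocks on 1 strand were thus found on X too, in a smaller share of regions than on any of the 4 autosomes. Regions of X were also smaller, and this share was not compared at like size.

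The score is a whole number that the authors deposited with each site without saying what it counts, and it was not read as a number of reads or as an editing level. Most sites of X had the lowest value. A score of 1 was listed for 2559 sites (79.3%), and 20.7% had at least 2, against 33.4% on V, 36.5% on II, 36.7% on IV and 38.6% on III. In 137 regions (70.3%, exact interval 63.3 to 76.6%) no site exceeded 1, against 52.5% on IV to 61.0% on V. A score of at least 5 was reached in 10 regions (5.13%, exact interval 2.49 to 9.23%), against 13.8 to 21.2% on the autosomes.

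Because regions of X were smaller, scores were also compared at like size. Among regions of 6 to 20 sites, a range chosen after the sizes had been seen, the share with a highest score of 1 was 85.0% on X (108 of 127, exact interval 77.6 to 90.7%) and 81.9 to 84.4% on the 4 autosomes. Within this range X thus stood 1.81 percentage points above the mean of the autosomes, where over all regions the gap was 14.1 points. Counted over sites in the same range, 6.11% on X and 6.88 to 9.49% on the autosomes had a score of at least 2. The gap stayed wider when only regions under 10 sites were left out. A highest score of 1 was then found in 44.7% of X regions, against 30.6 to 38.4%, or 9.47 points above the mean of the autosomes. Of the sites in these regions, 25.3% on X and 37.1 to 41.2% on the autosomes had a score of at least 2. What part region size has in the difference was not tested.

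**Figure D2:**
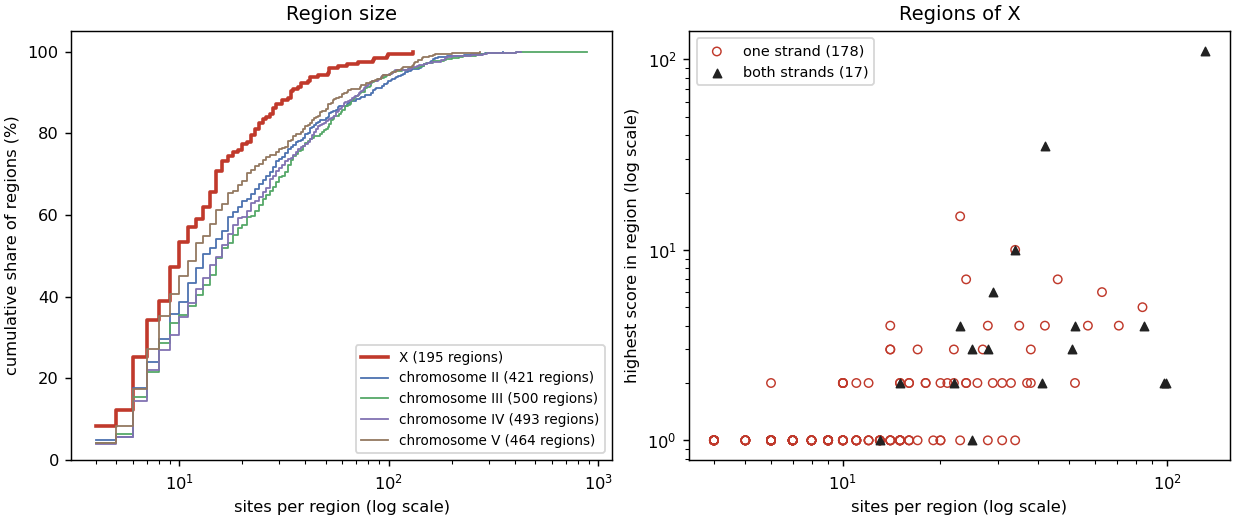
Left, cumulative share of regions (%) by sites per region (log scale) for X and chromosomes II to V; right, each of the 195 regions of X by sites and highest score (both log scales), with the 17 regions holding both strands as triangles. The curve of X lies to the left of the autosomes, and the region with 131 sites also has the highest score, 111.

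The region at chrX:1011580-1012308 on the left arm, whose inverted copies are printed above, stood apart from the rest of X. Its 131 sites spanned 729 bp, with 102 plus-strand and 29 minus-strand sites. Its scores had a median of 4 and a maximum of 111, at position 1011647 on the plus strand, within a TAG triplet. The region held 4.06% of the X sites but 28.5% of the summed score, and 42 of the 63 X sites that scored 10 or more. The mean score of X was 1.90, against 2.12 to 2.43 on the autosomes. Without the region with the most sites of each chromosome, it was 1.42 on X and 2.03 to 2.41 on the autosomes.

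Within this region the strands differed in score. The plus strand had a median of 7.5, and all 42 sites that scored 10 or more were on it, whereas the minus strand had a median of 1 and a maximum of 2. The inverted copies differed as well. The first copy had 28 plus and 4 minus sites whose scores had a median of 13.5 and reached 111. The second had 12 plus and 15 minus sites whose scores had a median of 1 and reached 8. Between the copies lay 64 sites, 62 of them on the plus strand, whose median score was 6.5 and highest 79. High scores were thus not confined to the 91-base stretches found by the search. They were gathered in the first plus-strand run, which covered 264 bp and 73 sites. The search ends a stretch at a mismatch or where bases are unknown, so the full length of the copies is not known.

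**Figure D3:**
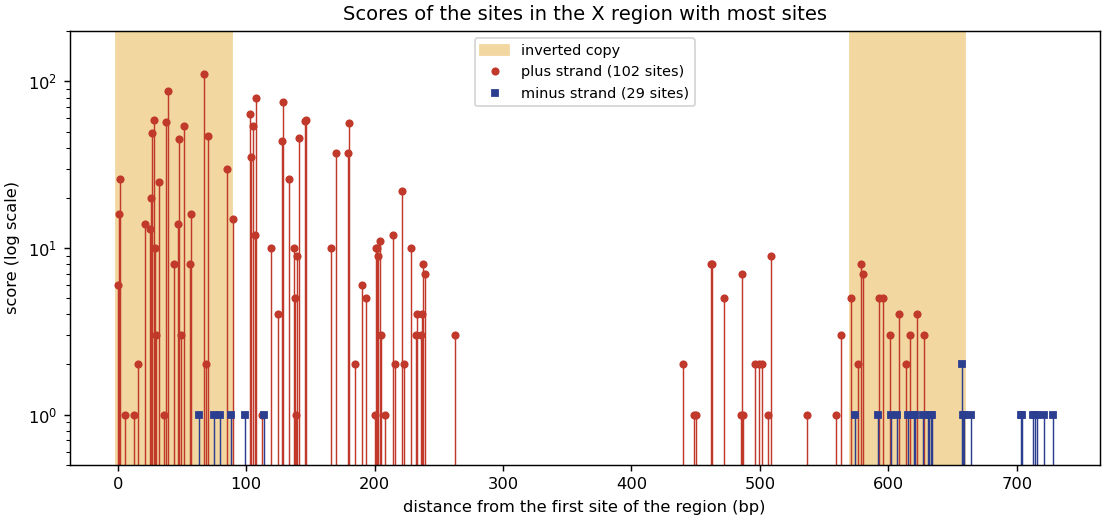
Score (log scale) of each of the 131 sites in the region of X with the most sites, by distance in bp from its first site; circles are plus-strand and squares minus-strand sites, and shaded bands are the inverted copies of 91 bases. High scores lie on the plus strand in the first 264 bp, and minus-strand sites stay at 1 or 2.

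The 10 regions of X with the most sites held 792 sites, or 24.5% of those on X. Of these 10, 7 lay on the arms, 5 had sites on both strands, and 9 had a highest score under 10. The second largest, chrX:16347450-16348761, had 99 sites with a highest score of 2. Its 26 minus-strand sites lay at 16348476 to 16348714, inside the range of its 73 plus-strand sites. The third, chrX:11582-13116, close to the left end, had 76 minus and 22 plus sites and also no score above 2. These 3 regions had the most sites on their minor strand among the regions of X.

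The region at chrX:17629834-17630387 held 85 sites with scores up to 4, 66 of them on the minus strand in blocks of 36 and 30, and its 19 plus-strand sites lay mostly between these blocks. The next, chrX:14176446-14177517, had 84 sites, all on the plus strand, in blocks of 49 and 35 sites. The known bases of these blocks included 20 matching pairs in inverted orientation. The region at chrX:10112179-10113240 lay in the centre, with 71 minus-strand sites in blocks of 33 and 38. Also on the minus strand alone were chrX:14065690-14066502 (63 sites), chrX:6600419-6601252 (57 sites) and chrX:13622165-13623301 (52 sites). The remaining one, chrX:10621322-10622085, had 44 minus and 8 plus sites. Apart from the largest region, the 10 had a highest score of between 2 and 6.

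Of the 5 regions with the highest scores, the largest region was the one also among these 10. Outside the largest region, the 21 sites that scored 10 or more fell in 4 regions. In chrX:5284511-5284917, on the left arm, 27 minus-strand sites within 90 bp had a median score of 6 and a maximum of 35, while its 15 plus-strand sites all had a score of 1. The dense region at chrX:7021591-7021654, in the centre, had a median score of 7 and a maximum of 15 over its 23 plus-strand sites, and 82.6% of them reached 2. In chrX:13336278-13336660, 34 plus-strand sites in 2 blocks reached 10. The remaining one, chrX:15810974-15811080, is the second of the tandem regions printed above and also reached 10. The last region of X, chrX:17713840-17713899, had 5 plus-strand sites with a score of 1, like the first.

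Both tandem regions lie on the right arm, 2801 bp apart. In chrX:15810974-15811080, 47 of 48 pairs of known bases that lie 26 bases apart were equal, and in chrX:15808063-15808172 it was 36 of 38. Laid on each other at the best offset, the regions were equal at 45 of 49 known bases. The second had 23 plus-strand sites with a median score of 3 and 11 minus-strand sites with a median of 2. The first had 19 plus-strand sites with a median of 2 and 10 minus-strand sites with a median of 1, and reached 6. It was singled out after its values were seen. These were the regions of X with such a period, 2 of 195 (1.03%, exact interval 0.124 to 3.66%). On each of the 4 autosomes 0 to 2 regions had one, or 0 to 0.475% of their regions.

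Over the whole chromosome the strands were nearly balanced, with 1694 plus and 1534 minus sites, or 52.5% plus, against 43.4% on V to 54.1% on II. Of the regions, 95 had plus sites alone and 83 minus sites alone. Both strands occurred in 17 regions (8.72%, exact interval 5.16 to 13.6%), against 11.4% on IV, 11.9% on V, 15.2% on II and 15.6% on III. These 17 regions held 813 sites, or 25.2% of those on X, with a median of 34 sites each against 9 in the others. The arms held 16 of them, 8 on each side, and the centre 1. In 12 of the 17 the ranges of the strands overlapped, and in 5 they were separate. The minor strand held 11.8 to 46.7% of the sites of such a region, with a median of 26.3%. Counting sites with a score of at least 2 alone, the share with both strands was 6.90% on X and 2.13 to 11.8% on the autosomes, and X then lay above their mean. Among regions of 6 to 20 sites the share with both strands was 1.57% on X (2 of 127, exact interval 0.191 to 5.57%) and 3.77 to 5.86% on the autosomes.

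A stretch of at least 20 known base pairs in inverted orientation without a mismatch was found in 3 X regions (1.54%, exact interval 0.318 to 4.43%), against 3.85 to 5.40% of the regions on the autosomes. These were the regions at chrX:1011580-1012308, chrX:17629834-17630387 and chrX:14176446-14177517. By strand, they were 2 of the 17 regions with both strands and 1 of the 178 others. Bases are known only at and beside listed adenosines, so sites on both strands supply more bases that can pair. The counts by strand therefore depend on which bases are known and are no comparison of structure. With at least 15 pairs required, the share stayed at 1.54% on X and was 5.82 to 8.08% on the autosomes. With at least 30 it was 1.03% on X and 1.01 to 2.00% on the autosomes, so that X was no longer the lowest. What part region size and strand mix have in these shares was not tested.

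**Figure D4:**
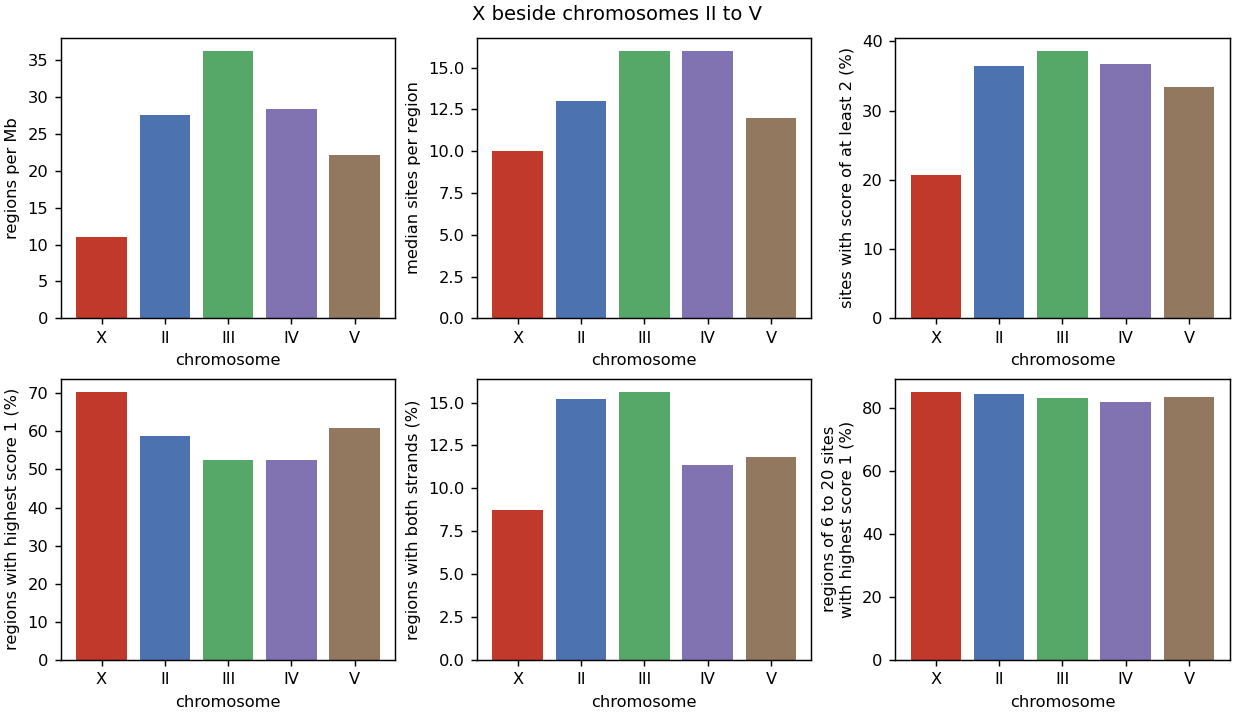
X beside chromosomes II to V for 6 measures: regions per Mb, median sites per region, share of sites with a score of at least 2, share of regions with a highest score of 1, share with both strands, and share with a highest score of 1 among regions of 6 to 20 sites. X is lowest or highest in each, and in the last panel its 85.0% stands beside 81.9 to 84.4%.

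The last question was which bases neighbour the sites, as ADAR enzymes are known to act poorly on adenosines with G on the 5′ side and better with G on the 3′ side. Read on the edited strand, G preceded 330 X sites (10.2%) and followed 589 (18.2%). The autosomes had 9.38 to 9.97% before and 16.9 to 18.1% after. G was thus more frequent after than before the site by 8.02 points on X, within the range of 7.17 (III) to 8.69 (V) points on the autosomes (p = 1, exact permutation test over 5 chromosomes). By strand this difference was 8.38 points for plus and 7.63 for minus sites of X. By region, 124 X regions had more sites followed by G than preceded by it, 31 had fewer and 40 had equal numbers. The share with more was 63.6% (exact interval 56.4 to 70.3%), against 67.9 to 73.6% on the autosomes. The share with fewer was 15.9% on X and 10.6 to 14.3% on the autosomes. Regions with equal numbers lower both shares, and neither was compared at like region size. With each region weighted equally, the excess of G after was 9.23 points on X and 9.11 to 10.9 on the autosomes, so that X then lay below their mean.

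A was the most frequent neighbour on X, at 47.4% before and 51.5% after the site, both below the 48.6 to 49.6% and 51.9 to 53.0% of the autosomes. C preceded 16.6% of X sites, against 15.2 to 15.6%, and followed 7.81%, against 7.27 to 7.91%. T stood at 25.7% before and 22.4% after, within the range of the autosomes on both sides. Of the 16 triplets, AAA was the most frequent with 857 sites (26.5%, against 27.5 to 28.4%), followed by TAA with 362 and AAT with 360. GAC was the rarest with 25 sites (0.774%), and CAC with 40 sites made up 1.24%, against 0.836 to 0.988%. No correction for the base composition of X was made, and no p is given for single triplets.

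**Figure D5:**
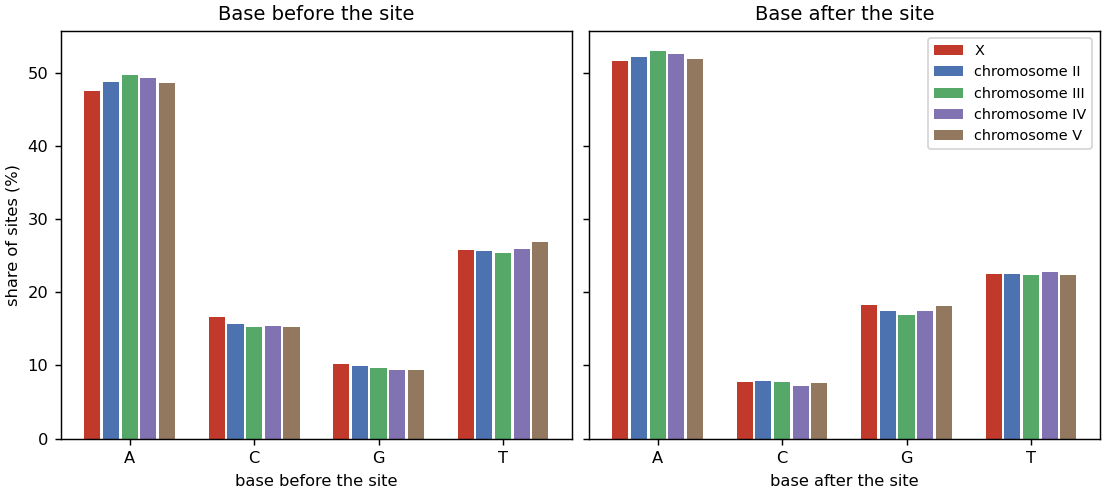
Share of sites (%) with each base before (left) and after (right) the site on its strand, for X and chromosomes II to V. On every chromosome shown, G is more frequent after than before the site and C more frequent before than after, and X differs from the autosomes by at most 1.62 points from their mean.

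The score could be set against the neighbouring base within runs that reached a score of at least 5, which on X occurred in 10 regions. These included both tandem regions, which were equal at 45 of 49 known bases. The counts and SDs below treat them as separate regions, although their sequences are near copies. Where T came before the site, the log2 score exceeded that of the run's other sites by a mean of 0.78 (SD 0.81 over 10 regions), and it was higher in 9 of 10. The same difference was 0.20 to 0.33 on the autosomes. Sites followed by A were higher by 0.45 (SD 0.38), also in 9 of 10 regions, where the autosomes had 0.09 to 0.17. Sites followed by C were lower in 8 of 9 regions, with a mean of -0.48 (SD 0.76). Sites preceded by G had a mean of -0.27 with an SD of 1.09 over the regions and a lower score in 6 of 10, where the autosomes had -0.30 to -0.26. G after the site had a mean of -0.01 (SD 0.64), higher in 4 of 10 regions, where the autosomes had 0.03 to 0.26. Lower means were also found for T after the site, at -0.43 (SD 0.61, lower in 7 of 10), and for C before it, at -0.26 (SD 0.50, lower in 8 of 10). The spread over so few regions was as large as most of these means. Most of them were nearer 0 when runs that reached a score of 3 were taken. T before the site then had 0.38 and A after it 0.14, each over 28 regions. G before the site had -0.03 over 25 regions, C after it -0.27 over 21 and T after it -0.17 over 28.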

How the data were processed

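Per the labels' protocols, RNA extracted with TRIZOL was depleted of rRNA, treated with RNase R or mock, and made into TruSeq libraries. The authors deposited 1 list of A-to-G positions for the whole series, with a 1-base interval, the genome triplet, a score and a strand. The caller, its filters, the build and what the score counts are not stated in the labels or the list. The human list was not used here, and chromosome I was not compared. On X, 1 of 6 bases fixed by the WBcel235 annotation (start codons, intron ends) equalled the listed base, so no gene was assigned.

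Positions are 1-based. Triplets were read on the strand of the site, where the middle base was A in all 3228. The highest listed coordinate stood for chromosome length, and arms were its outer 33.3%. X was compared with II, III, IV and V by a two-sided exact permutation test of which of the 5 is X. Intervals are exact (Clopper-Pearson) at 95%, treat regions as independent and cover counting error alone. Shared patterns were 8 consecutive sites of equal triplets and spacing. A tandem period was 5 to 60 bases with at least 90% of at least 20 known pairs equal. Inverted pairs were counted without mismatch and with at least 3 bases between them. Computations (Python 3.11.15, pandas 2.3.3, SciPy 1.17.1) were tested on simulated data. Regions named were the 10 with the most sites, the 5 with the highest score, the first and last, and the 3 with the most minor-strand sites. A further tandem region and a further region with a shared pattern were named after their values were seen. Members, measures and lists were chosen with earlier results of these data known. Merging distance, minimum score, arm width, weighting and pattern length were varied.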

Additional observations from a re-analysis of the deposited data

How the results depend on the processing

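Of 56 alternative settings of the comparisons with chromosomes II to V, 54 kept the direction and 2 reversed it; no p could pass, as the test allows none below 0.2. The excess of G after the site relative to the autosomes' mean, 0.17 points, became -0.91 with each region weighted equally. The share of regions with both strands, -4.79 points relative to the autosomes, became 0.49 with a minimum score of 2. A minimum score of 2 left 58 of the 195 regions of X and a minimum of 5 left 10, while merging distances of 100 to 5000 bp gave 254 to 170. The ratio of X to the mean autosome density in regions, 0.384, ran from 0.103 (minimum score of 5) to 0.482 (merging at 5000 bp). With a minimum score of 5, 83.1% of X sites were on the plus strand, most of them in the largest region. For G after the site, the score difference of -0.01 became 0.12 with runs that reached 3 and 0.15 with runs joined at 50 bp. The limit of 6 to 20 sites, that of at most 20 for shared patterns and leaving out the largest regions for score, mean score, size and strand were chosen after seeing the data. No paired analysis was possible because the list does not separate libraries, so no replicate could be left out. Unknown depth limits every statement on absence.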

Other observations

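Patterns of sites that recur elsewhere were rare on X. Where a run had 8 or more sites (127 X regions), 2 held 8 consecutive sites with the triplets and spacing of another region (1.57%, exact 95% interval 0.191 to 5.57%), against 9.42% on V, 10.6% on II, 13.9% on IV and 18.3% on III. They were chrX:17629834-17630387, the region with inverted copies near the right end, which shared its pattern with 1 region, and chrX:11831313-11831710, with 22 plus-strand sites and scores up to 3, which shared with 3 regions. One of the latter was the region at chrIII:12609059-12612215, which held 292 sites. With patterns of 6 sites the share on X was 14.0%, against 21.4 to 31.2% on the autosomes, and with 10 sites it was 0 on X and 4.78 to 10.4% on the autosomes. Among regions of at most 20 sites with such a run, 0 of 83 on X and 0 of 182 on V shared a pattern of 8. On the other autosomes it was 1 of 173 on IV, 1 of 156 on II and 5 of 175 on III, so that X was level with V. What part region size has in the share was not tested.

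The centre and arms of X were also set side by side in score, size and neighbouring bases. A highest score of 1 was found in 73.3% of the 45 regions of the centre (exact interval 58.1 to 85.4%), 73.9% of the 69 on the left arm (61.9 to 83.7%) and 65.4% of the 81 on the right arm (54.0 to 75.7%). Median region sizes were 9, 10 and 11 sites. G preceded 9.37% of the sites in the centre, 11.2% on the left arm and 9.84% on the right arm, and followed 18.6, 18.7 and 17.7%. Of the sites, 45.3% in the centre, 58.1% on the left arm and 51.3% on the right arm were on the plus strand. A score of at least 5 was reached in 1, 4 and 5 regions. Both strands occurred in 2.22% of the regions of the centre (1 of 45, exact interval 0.0562 to 11.8%), 11.6% on the left arm (5.14 to 21.6%) and 9.88% on the right arm (4.36 to 18.5%). Of the 189 X runs whose scores were all 1, 180 spanned at most 101 bp and 9 were longer. Runs of this kind, all at 1 and at most 101 bp, made up 67.4% of the runs on X and 51.4 to 57.3% of those on the autosomes.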
